A study of Mus musculus with 13 samples.

Results

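Ly6g, Sulf2, BC025446, Ak1, Lncenc1, Ulbp1, Ebf1 and Plk2 are 8 genes that stood among the larger rises in mouse collecting duct cells given an antisense oligonucleotide against Hoxb3os, a long noncoding RNA transcribed opposite Hoxb3. They were selected on those rises, that is on the log2 change between gapmer and control cells, out of 2016 genes in the deposited cell table, so their values in the cells are given as a description and carry no test. The same 8 genes were then followed in 8 mouse kidney libraries. The rule of the choice used no kidney values, but the choice was made with earlier results of these data known.

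The cells were mIMCD-3, an established line from the inner medullary collecting duct of the mouse, grown in DMEM with fetal bovine serum. They were transfected with a Lipofectamine lipid reagent and 10 nM of a control GapmeR (n = 2 libraries) or of a GapmeR against Hoxb3os (n = 3) and collected after 48 h. A gapmer is a short oligonucleotide with a DNA core that directs RNase H to cut the RNA it pairs with. The kidneys came from C57BL/6 mice of 4 groups with 2 libraries each. Pkd1 knockouts were KSP/Cre+;Pkd1f/f and their controls KSP/Cre-;Pkd1f/f, at postnatal day 10. Pkd2 knockouts were Pkhd1/Cre+;Pkd2f/f and their controls Pkhd1/Cre-;Pkd2f/f, at postnatal day 20. All 8 kidneys therefore carried a floxed gene, and the controls differed from the knockouts in lacking Cre. KSP/Cre is driven by the promoter of kidney-specific cadherin and Pkhd1/Cre by that of Pkhd1, both of which act in tubule epithelium, so the other cells of a knockout kidney keep the gene. Pkd1 and Pkd2 encode the polycystins, whose loss causes autosomal dominant polycystic kidney disease. The Pkd2 knockouts have "(WT)" in their titles but Cre+ in their genotype, and the genotype was followed. The labels do not say whether the replicates were separate animals or cultures, so the spread between them may be technical.

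Summed over the whole gene, Pkd1 was at 31.1 and 22.7 in its controls and 24.1 and 26.0 in its knockouts, which overlap. Pkd2 was at 69.0 and 61.2 in its controls and 50.7 and 53.3 in its knockouts, which do not. The sources used here do not name the floxed exons, so these sums do not check the labels. The level of Hoxb3os in the cell libraries is not analysed here, so the knockdown itself was not checked. Kidney libraries held 30.7 to 94.4 M reads, and the genes of the cell table accounted for 7.47 to 14.3 M reads per cell library. The cell table is a selection, since every gene in it has an adjusted p below 0.05 in the authors' deposited table. Only 1 of 13 collecting duct markers (Cdh1) is among them, so the identity of the line could not be checked. Mitochondrially encoded genes took 27.4% to 41.4% of the control kidney values and 22.1% to 34.7% of the knockout values, and 9 of 9 macrophage markers rose and 7 of 7 proximal tubule markers fell in both knockouts (limma, Benjamini-Hochberg adjusted p below 0.05).

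The 8 genes do not form a known pathway. Ly6g encodes a protein anchored to the cell surface by glycosylphosphatidylinositol and is the classical surface marker of mouse neutrophils. BC025446 is its neighbour in the Ly6 cluster and is named Ly6g2 in RefSeq. Sulf2 is an extracellular enzyme that removes 6-O-sulfate groups from heparan sulfate, the sugar chain that holds growth factors at the cell surface. Ulbp1 is a surface ligand, induced by cell stress, of NKG2D, an activating receptor of natural killer and T cells. Ak1 is the cytosolic adenylate kinase, which balances ATP, ADP and AMP. Plk2 is a polo-like kinase with a role in centriole duplication and a known target of the stress-activated transcription factor p53. Ebf1 is a transcription factor best known for specifying B cells and also expressed in fat and stromal cells. Lncenc1 is a long noncoding RNA described in naive embryonic stem cells.

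The gapmer sequence was first searched for in the members, since an oligonucleotide can pair with other RNAs through part of its length. The gapmer and the site it pairs with, both 5′ to 3′ and with capitals marking complete pairing, are
gapmer: ATTACTGCTTCTTCCA
site: TGGAAGAAGCAGTAAT
Among the transcripts of 55450 annotated genes (GENCODE M21), the whole site of 16 bases was found in 1 gene, Hoxb3os itself. There it starts at base 1710 of the 1945 bases of Hoxb3os-202 and lies in exon 2, at chr11:96348296-96348311 on the minus strand of GRCm38. No annotated transcript of the 8 members holds it, and introns outside these transcripts were not searched. The site is repeated here with capitals marking the longest stretch that also occurs in each of the 3 members with the longest ones.
Sulf2: tGGAAGAAGCAgtaat
Ebf1: tggaaGAAGCAGTAat
Lncenc1: TGGAAGAAGcagtaat
The stretch in Sulf2 is 10 bases, and 4.48% of all genes searched share at least 10. Those in Ebf1 and Lncenc1 are 9 bases, which 14.9% of genes reach. BC025446, Plk2 and Ulbp1 share 8 bases, as do 39.2% of genes, and Ak1 and Ly6g share 7, as do 68.0%. Longer transcripts have more chances to hold such a stretch, and cutting at these places was not tested. The members were chosen for rises, whereas cutting removes an RNA, so the search does not address those rises.

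In the cells, all 8 genes had every gapmer library above both control libraries. Values below are normalised read counts, that is, reads scaled by a size factor for each library, and log2 changes are differences of mean log2(value + 1), Hoxb3os gapmer minus control gapmer. The choice of members fixed this direction: 44.4% of the 2016 genes were higher without overlap, and 0.942% (19 genes) were higher by at least 2-fold, 7 of which are members.

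**Figure D1:**
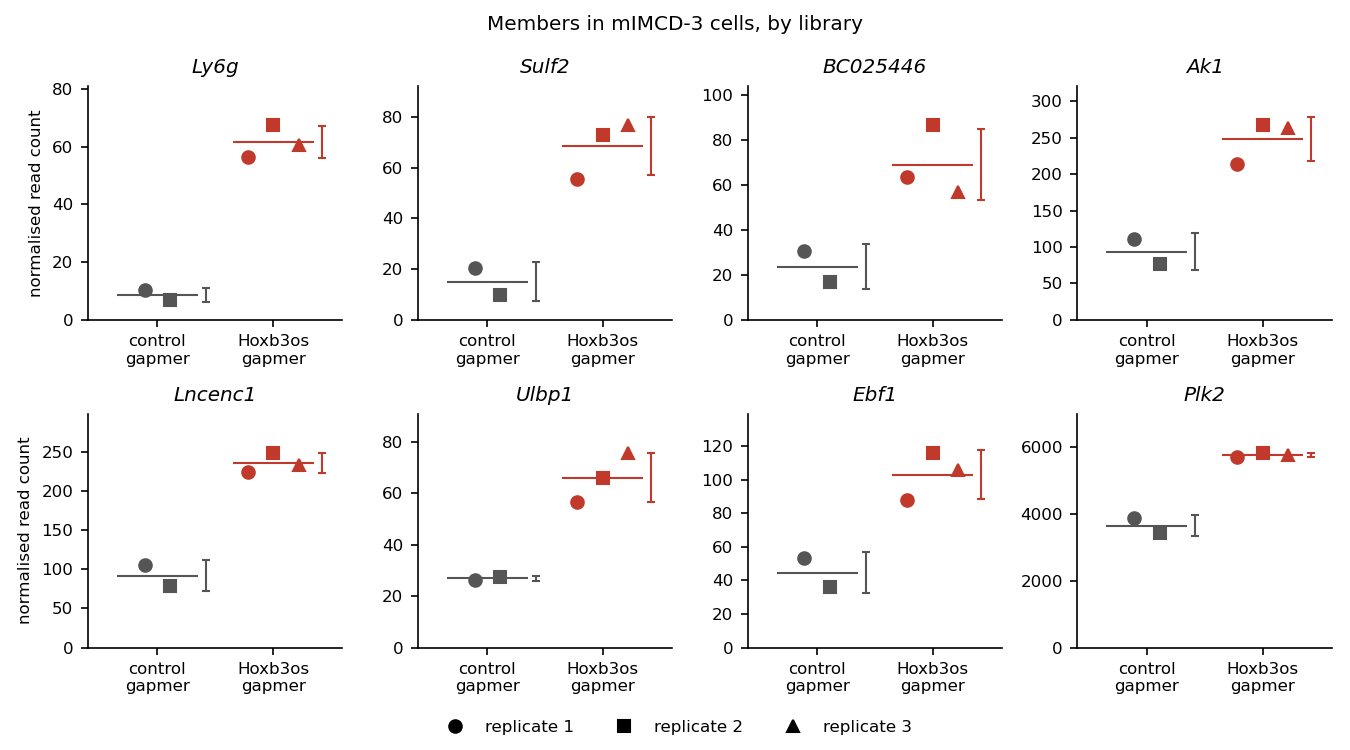
Normalised read counts of the 8 members in 5 mIMCD-3 libraries (vertical axes from 0, one scale per gene). Points are libraries by replicate number, horizontal lines group means and error bars 1 SD (n = 2 control, n = 3 Hoxb3os gapmer). Every red point lies above both grey points, from 56.5 to 67.6 against 6.91 and 10.2 for Ly6g to 5720 to 5841 against 3433 and 3881 for Plk2.

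The surface proteins are described first. Ly6g was counted at 10.2 and 6.91 in the 2 control libraries and at 56.5, 67.6 and 60.5 in the gapmer libraries. The controls rest on 9 and 10 reads, the gapmer libraries on 58, 50 and 63. The group means, 8.57 ± 2.35 (SD, n = 2) and 61.5 ± 5.60 (SD, n = 3), stand in a ratio of 7.18, the largest log2 change of the table at 2.73. BC025446, 57.3 kb away on chromosome 15, was at 30.7 and 16.6 in controls and 63.3, 86.5 and 56.7 with the gapmer. Its means of 23.6 ± 9.99 (SD, n = 2) and 68.8 ± 15.7 (SD, n = 3) give a log2 change of 1.54, and its lowest gapmer library was 1.85 times its highest control. Ulbp1, on chromosome 10, was at 26.2 and 27.6 in controls and 56.5, 66.2 and 75.9 with the gapmer, a log2 change of 1.26. It is the member whose controls lay closest together in proportion, with the first at 0.947 times the second.

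Reads of Ly6g and BC025446 could in principle be exchanged between Ly6 copies, so shared sequence was counted. Of 892 stretches of 50 bases in Ly6g transcripts, 4 occur in another gene (Gm28116 and Ly6i), and BC025446 shares none of its 1619. The other Ly6 genes closest to them, Ly6c1 and Ly6c2, are not among the 2016 genes. Plaur, the urokinase receptor, was the only other of 44 Ly6 and uPAR family genes in the cell table, at 1010 and 991.6 in controls and 1253, 1328 and 1243 with the gapmer, a log2 change of 0.35. Of the other 12 genes of the NKG2D ligand and receptor list, none is in the table.

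Sulf2, the heparan sulfate enzyme, was at 20.5 and 9.67 in controls and 55.5, 73.0 and 76.8 with the gapmer. The means, 15.1 ± 7.64 (SD, n = 2) and 68.5 ± 11.4 (SD, n = 3), stand in a ratio of 4.54, for a log2 change of 2.18. The controls differed 2.12-fold from each other, the widest of any member, and counts were 18 and 14 reads against 57, 54 and 80. Sulf2 overlaps exons of Ncoa3 on the opposite strand over 154 bases, 2.62% of its exon length, and Ncoa3 is not among the 2016 genes. How strand was treated in the counting is not given in the sources used.

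Of 43 genes that build, edit or carry heparan sulfate, 9 are in the cell table, and 7 of the other 8 were lower with the gapmer (median log2 change of the 8, -0.37, beside -0.14 for all 2016 genes). Sdc3, a syndecan that carries heparan sulfate at the cell surface, went from 251.3 and 272.8 to 137.4, 146.0 and 146.0, a log2 change of -0.87. Hpse, heparanase, which cleaves the chains, went from 586.7 and 562.1 to 430.7, 381.1 and 364.0 (-0.55). Gpc6, a glypican (-0.47), Pxylp1, a phosphatase of the linkage region (-0.44), and Sdc2, another syndecan (-0.30), were lower too. B4galt7, which adds a galactose to the linkage region, was the exception at 0.21. It is named after its value was seen. In the table as a whole 55.6% of genes were lower.

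Ak1 was at 111.4 and 76.0 in controls and 213.4, 267.6 and 263.2 with the gapmer, a log2 change of 1.41. Its group means were 93.7 ± 25.1 (SD, n = 2) and 248.1 ± 30.1 (SD, n = 3). Of the other nucleotide kinases in the table, Nme1 and Guk1 were slightly higher (0.24 and 0.23) and Nme5 and Ak3, a mitochondrial adenylate kinase, slightly lower (-0.30 and -0.13).

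Plk2 is the abundant member, at 3881 and 3433 in controls and 5720, 5841 and 5764 with the gapmer. Its means of 3657 ± 317 (SD, n = 2) and 5775 ± 61.3 (SD, n = 3) stand in a ratio of 1.58, a log2 change of 0.66. No other polo-like kinase is in the table.

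Plk2 and Sulf2 both belong to a list of 32 genes taken here as p53 targets, and the other targets in the table were mostly higher with them. Of 10 such genes 9 were higher, with a median log2 change of 0.38, beside 44.4% of all genes in the table and their median of -0.14. Whether p53 acts on these genes in the cells was not tested. Ccnd1, cyclin D1, counted among the 9 only because the list holds it, was the largest. It went from 744.8 and 434.3 to 1051, 1143 and 965.3 (0.88). Its controls lay far apart, and its moderated log2 change in the authors' deposited table was 0.23. Aen, a nuclease of apoptosis (0.47), Trp53inp1, a p53 cofactor (0.41), and Ccng1, cyclin G1 (0.39), had controls close together, such as 690.2 and 662.2 for Aen against 891.6, 1024 and 902.9. The one lower target was Sesn1 (-0.16), named after its value was seen. The remaining 20 targets of the list, including Cdkn1a, are not among the 2016 genes, and the list was drawn up with earlier results of these data known.

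**Figure D2:**
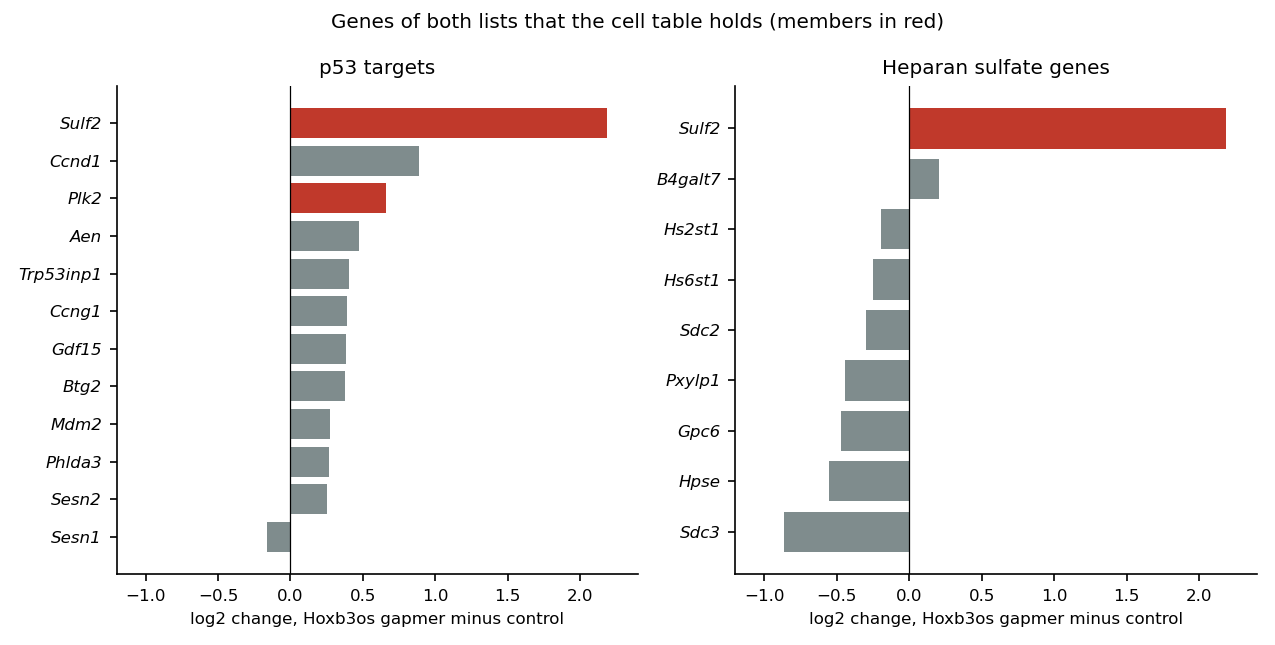
Log2 change (Hoxb3os gapmer minus control gapmer, horizontal axes, no error shown) of the 12 p53 targets and the 9 heparan sulfate genes present in the cell table, members in red. Among p53 targets 11 bars point right and 1 left, and among heparan sulfate genes 2 point right and 7 left.

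The transcription factor and the noncoding RNA complete the set. Ebf1 was at 53.4 and 35.9 in controls and 87.7, 116.2 and 105.7 with the gapmer, a log2 change of 1.21. Among its listed partners, Id1 and Id3, inhibitors of basic helix-loop-helix factors, were higher (0.54 and 0.33) and Id2 lower (-0.19). Lncenc1 was at 105.8 and 78.0 in controls and 224.1, 248.7 and 233.4 with the gapmer, a log2 change of 1.36. Its means were 91.9 ± 19.6 (SD, n = 2) and 235.4 ± 12.4 (SD, n = 3). Of 16 other naive pluripotency genes, the cell table holds Klf2 and Tfcp2l1, both transcription factors and both lower (-0.69 and -0.21). None of the markers listed for neutrophils (12), B cells (7) or natural killer and T cells (9), the cells in which Ly6g, Ebf1 and the NKG2D receptor are best known, is among the 2016 genes.

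Apart from Plk2, the members are scarce RNAs among the 2016 genes. These were selected by adjusted p, so ranks and medians here are not those of all RNAs of the cells. By mean level Ly6g is the 10th lowest of the 2016 genes and Sulf2 the 12th, and Ak1, the highest of the 7 scarce ones, the 113th, while Plk2 is the 1476th. The median level of the table is 2398, that of the 19 genes at least 2-fold higher 79.8. Per kilobase of exon, control levels ran from 2.57 for Sulf2, 3.997 for Ulbp1 and 4.58 for Ebf1 through 9.10 for Ly6g, 14.9 for BC025446, 27.8 for Lncenc1 and 36.1 for Ak1 to 814.3 for Plk2, beside a median of 480.7 over 2004 genes. Neighbours in this order whose control ranges overlap, such as Ulbp1 and Ebf1 or Lncenc1 and Ak1, are not set apart by 2 libraries.

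**Figure D3:**
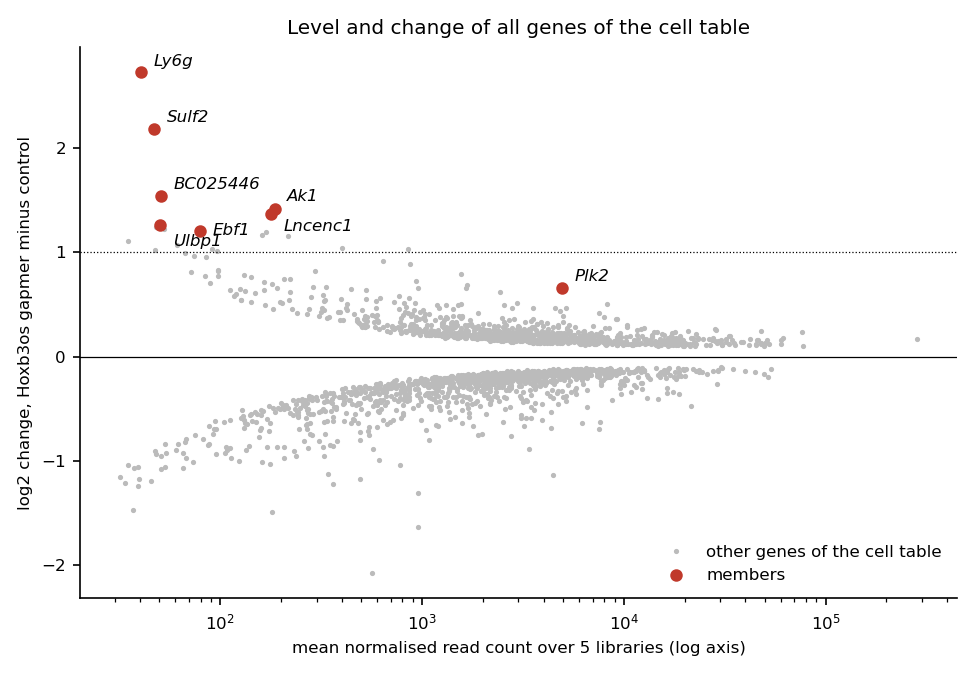
Mean normalised read count over 5 libraries (log axis) against log2 change for all 2016 genes of the cell table, members in red. The dotted line marks a 2-fold rise; 7 members lie above it, at the low end of expression, and Plk2 lies at 0.66 among the abundant genes.

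The control libraries were not alike for these genes. Control replicate 1 exceeded control replicate 2 in 7 of 8 members, Ulbp1 being the exception, with a median ratio of 1.47. Over the 896 higher genes of the table it did so in 69.7%, with a median ratio of 1.03. Apart from Plk2 the members are scarce beside most of the table, with Ly6g at 9 and 10 control reads. Ratios of so few reads vary widely, so the 2 medians are not like for like. Gapmer replicate 1 was the lowest of its group in 7 of 8 members, BC025446 being the exception, and in 42.2% of higher genes. What sets these libraries apart was not tested. Against control replicate 1 alone the log2 changes were 2.47 for Ly6g, 1.68 for Sulf2 and 0.57 for Plk2, and against control replicate 2 alone they were 2.98, 2.69 and 0.75. No gapmer library fell to the level of either control in any member.

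In the authors' deposited table, where log2 changes are moderated, scarce genes are pulled towards 0 and the order differs. Lncenc1 (0.70) and Ak1 (0.69) rank 2nd and 3rd among rises there, Plk2 (0.61) 8th, Ly6g (0.47) 18th, Sulf2 (0.42) 38th, Ebf1 (0.39) 47th, BC025446 (0.33) 91st and Ulbp1 (0.31) 106th. By the unmoderated change used here the first 6 ranks are Ly6g, Sulf2, BC025446, Ak1, Lncenc1 and Ulbp1, with Ebf1 9th and Plk2 43rd. The set is therefore no clean top list by either measure. Among named genes with a mean level of at least 5, Plk2 ranks 40th of 785 higher genes and 32 genes outside the set lie above it. Slc1a4, an amino acid transporter, was among the genes just below Plk2 (0.65). Just below Ebf1 at 1.21 lay Etv1, an ETS factor (1.19), and Fam212b (1.16), and just above it Gc, the vitamin D binding protein (1.22), the last 3 named after their values were seen.

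The members lie on 5 chromosomes, with coordinates from GENCODE M21 on GRCm38. Ly6g (chr15:75155240-75159126) and BC025446 (chr15:75216376-75222661) are adjacent protein-coding genes on the plus strand. Lncenc1 (chr13:97434970-97497007, plus), annotated as a long intergenic RNA, and Plk2 (chr13:110395046-110400844, plus) are 12898 kb apart. Ak1 (chr2:32621758-32635058, plus) and Sulf2 (chr2:166073089-166155663, minus) lie far apart on chromosome 2. Ulbp1 spans chr10:7440362-7473638 on the minus strand and Ebf1 chr11:44617317-45008091 on the plus strand, where exons make up 2.50% of its 390775 bases. Within 1 Mb of a member, other table genes were few: 9 around Ak1 (4 higher and 5 lower), 4 around Lncenc1 (3 higher and 1 lower), 2 around Ebf1, both higher, 1 around Sulf2, lower, 3 around the Ly6g pair (1 higher and 2 lower), and none around Ulbp1 or Plk2. The largest of these changes within reach of Lncenc1 was that of Enc1, an actin-binding protein gene 181.9 kb before it, at 0.62.

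The members were higher together in the cells by choice, and the 250 bases before each RefSeq start site (GRCm38.p6) were searched on both strands for short motifs. The table used holds 13 such promoters for 7 members, BC025446 not among them, and 32851 in all. Some of these stretches lie in exons annotated by GENCODE. Such exons cover all 250 bases of 1 Ebf1 stretch and 161 of that of Ulbp1. They cover 21 and 89 bases of those of Ly6g and 33 of 1 of Sulf2. The cAMP response element, TGACGTCA, occurs in 1.55% of promoters and in 1 member, Plk2, at bases -62 to -55 from the start. The TATA box, TATAAA (12.4% of promoters), is in both Ly6g promoters, starting at -99 and -167, and in 1 of the Sulf2 promoters, at -244. The 2 Ly6g windows overlap, and their TATA and CCAAT matches are the same places on the chromosome, seen from 2 start sites. The CCAAT box, CCAAT (33.8%), is in Ly6g, Sulf2, Lncenc1 and Ulbp1. No member promoter holds the EBF palindrome (0.779% of promoters), the AP-1 motif TGANTCA (6.75%), the ETS motif CCGGAAG (6.91%) or the E-box CACGTG (6.02%). Nor does any hold RRRCWWGYYY (7.13%), where R is A or G, W is A or T and Y is C or T. That motif is only 1 unit of a p53 site. Whole p53 response elements were not searched for, nor was sequence beyond the 250 bases. The motifs found do not overlap each other in the members. A match here is a run of letters, and no binding was measured. The promoters of the most abundant member, of the one with the largest change and of the noncoding RNA are shown, 5′ to 3′, with the matched motifs in capitals. For Ly6g the promoter with the TATA box at -99 is shown, cut where an annotated exon starts.
Plk2, chr13:110394794-110395043, plus strand: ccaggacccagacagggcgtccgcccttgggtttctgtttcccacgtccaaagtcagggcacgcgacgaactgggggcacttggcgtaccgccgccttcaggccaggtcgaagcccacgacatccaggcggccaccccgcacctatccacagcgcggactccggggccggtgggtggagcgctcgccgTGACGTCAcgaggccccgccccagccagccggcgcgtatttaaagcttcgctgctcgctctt
Ly6g, chr15:75155011-75155239, plus strand: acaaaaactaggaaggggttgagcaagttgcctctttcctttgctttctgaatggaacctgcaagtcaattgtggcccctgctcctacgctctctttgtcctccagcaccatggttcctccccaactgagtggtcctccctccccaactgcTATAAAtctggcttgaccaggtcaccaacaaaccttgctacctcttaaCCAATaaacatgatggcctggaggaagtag
Lncenc1, chr13:97434720-97434969, plus strand: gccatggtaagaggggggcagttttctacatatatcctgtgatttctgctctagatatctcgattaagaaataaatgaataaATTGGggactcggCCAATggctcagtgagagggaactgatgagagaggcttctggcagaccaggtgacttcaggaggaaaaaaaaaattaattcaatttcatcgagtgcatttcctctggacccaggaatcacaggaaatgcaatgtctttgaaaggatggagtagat
Lncenc1 carries the CCAAT box once on each strand, at -168 (as ATTGG) and at -155. The Plk2 promoter is rich in G and C at 68.4%, beside 49.2% for that of Ly6g over the full 250 bases, 42.4% for Lncenc1 and a median of 52.4% over all promoters.

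In the kidneys the 6 members that could be tested did not move in 1 direction. Values there are CPM scaled library by library. They were tested by limma on log2(value + 1) over 14637 genes that reached 1 in 2 or more libraries, with calls made where the p adjusted by Benjamini and Hochberg was under 0.05. Ebf1 fell in both knockouts, Ak1 fell and Plk2 and Ulbp1 rose in Pkd2 knockouts, and BC025446 and Sulf2 passed the threshold in neither. So of 6 tested members 1 was called for Pkd1 (0 higher, 1 lower), beside 10.6% of all tested genes (5.11% higher, 5.48% lower), and 4 for Pkd2 (2 higher, 2 lower), beside 17.7% (9.54% higher, 8.13% lower). One of the higher calls, Ulbp1, passed the filter only through its knockout libraries. The groups did not overlap in 6 of 6 members for Pkd1 and 5 of 6 for Pkd2, where 58.3% and 62.7% of all tested genes also did not. The median log2 change of the 6 was -0.45 for Pkd1 and -0.42 for Pkd2, beside 0.00 for all tested genes in the first and -0.01 in the second. In whole kidneys, fewer cells of a type and less RNA per cell cannot be told apart.

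**Figure D4:**
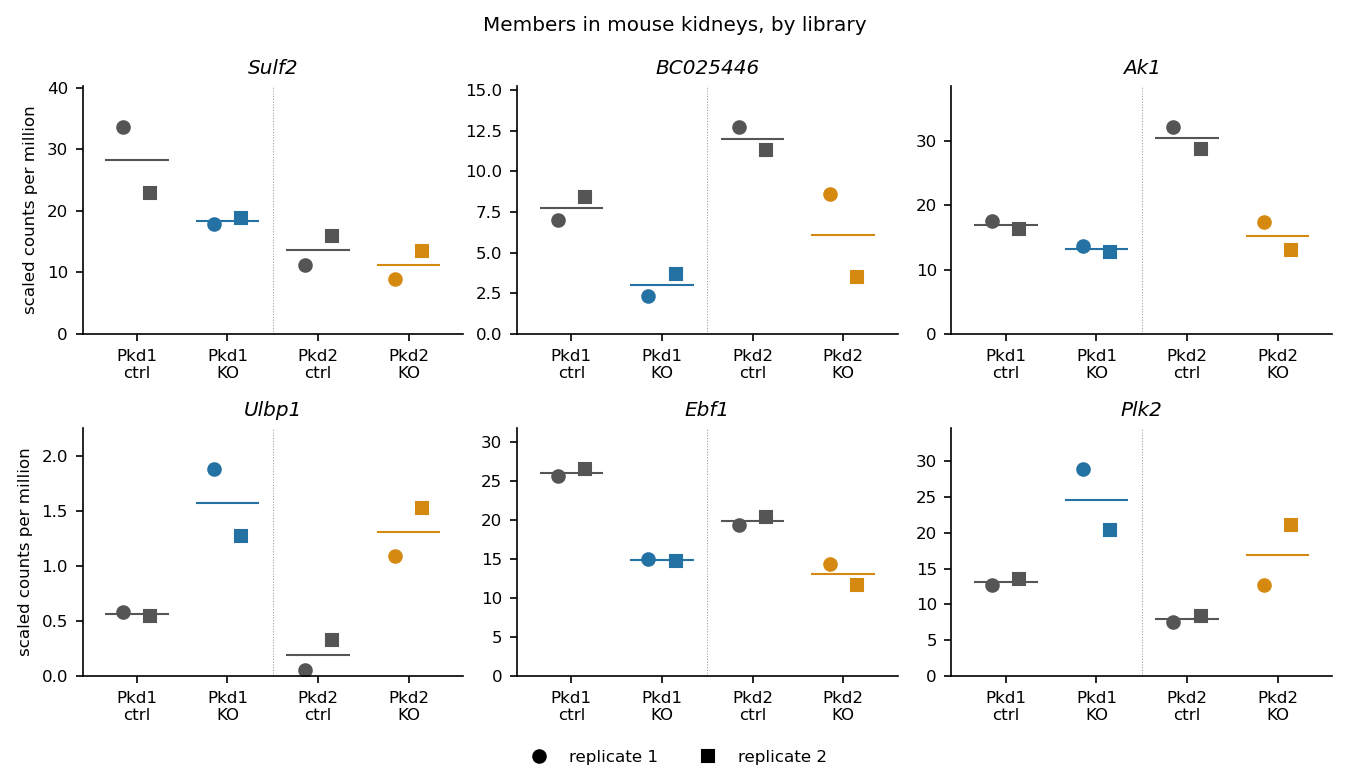
Scaled CPM of the 6 tested members in 8 kidney libraries (vertical axes from 0, one scale per gene); points are libraries by replicate number and lines group means (n = 2). Plk2 and Ulbp1 lie higher in both knockouts than in their controls and BC025446, Ak1 and Ebf1 lower, while the Sulf2 values of the Pkd2 groups overlap.

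Ly6g and Lncenc1 were too low to test. Ly6g had 3 reads in Pkd1 knockout replicate 1, 1 in Pkd1 control replicate 1 and 0 in the other 6 libraries, a highest value of 0.0521. Lncenc1, listed under its older name Lincenc1 with the same identifier, had 0 to 6 reads per library and a highest value of 0.112. At this depth no difference between groups was detectable for either.

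Plk2 rose in the Pkd2 knockouts and was higher in the Pkd1 knockouts without passing the threshold. It stood at 12.7 and 13.6 in Pkd1 controls and 28.9 and 20.4 in Pkd1 knockouts, and at 7.59 and 8.34 in Pkd2 controls and 12.7 and 21.1 in Pkd2 knockouts. The groups do not overlap within either model, although the first Pkd2 knockout only reached the Pkd1 control level. The log2 changes were 0.84 ± 0.25 (SE, limma adjusted p = 0.0680) for Pkd1 and 0.96 ± 0.25 (adjusted p = 0.0322) for Pkd2. Leaving out the second Pkd2 knockout library lowered the latter to 0.61 (adjusted p = 0.169). It was lost without either Pkd2 control (0.157 and 0.138) or either Pkd1 control (0.0567 and 0.0569), without a filter (0.0837) and in a fit of that model alone (0.0703), 7 of 16 alternatives in all. In the Pkd1 model leaving out either Pkd2 knockout library brought the adjusted p to 0.0212 and 0.0216.

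Other genes of its family and pathway are tested in the same fit. Plk1 and Plk4, kinases of mitosis and centriole duplication, rose in Pkd2 knockouts with Plk2, at 0.84 ± 0.18 (SE, limma adjusted p = 0.0137) and 0.97 ± 0.24 (adjusted p = 0.0266). In controls both fell from day 10 to day 20 (-1.46 and -0.96, limma adjusted p = 0.00183 and 0.0339). The Pkd2 calls held under 13 of 16 alternatives for Plk1 and 11 of 16 for Plk4, the age calls under 15 of 15 and 8 of 15. Of 31 tested p53 targets, Plk2 and Sulf2 included, 5 rose in Pkd1 knockouts and 9 in Pkd2 knockouts and none fell, beside 5.11% and 9.54% of all tested genes that rose. The median over the 31 was 0.40 and 0.28. Pmaip1, a trigger of apoptosis, rose by 1.91 ± 0.22 (SE, adjusted p = 0.00237) and 1.80 ± 0.22 (adjusted p = 0.00187), from 0.746 and 1.42 to 7.57 and 5.95 in the Pkd1 model. Btg2, an antiproliferative gene, rose by 1.146 and 1.109 (adjusted p = 0.00497 and 0.00366). Eda2r, a death receptor, rose by 1.69 and 1.41 (adjusted p = 0.00840 and 0.0121). Pmaip1 and Btg2 stayed called for both models under each of 16 alternative settings.

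Ulbp1, the NKG2D ligand, was scarce in control kidneys and rose in Pkd2 knockouts. It was at 0.582 and 0.547 in Pkd1 controls against 1.88 and 1.27 in knockouts, and at 0.0520 and 0.331 in Pkd2 controls against 1.09 and 1.53 in knockouts. Every knockout exceeds every control of both models. Reads numbered 71 and 25 against 108 and 60, and 2 and 15 against 39 and 66. The log2 change was 0.71 ± 0.20 (SE, limma adjusted p = 0.0553) for Pkd1 and 0.96 ± 0.20 (adjusted p = 0.0135) for Pkd2, which understate the ratios because 1 was added to small values. It entered the test only through its knockout libraries, all 4 controls being below the filter value of 1, so its passing the filter and its difference are not independent. The Pkd2 call was lost without Pkd2 control replicate 1 (0.79, adjusted p = 0.1097) and without Pkd2 knockout replicate 2 (0.82, adjusted p = 0.0748). In the authors' deposited table its adjusted p was 0.00732 for Pkd1 and 3.05e-06 for Pkd2, in comparisons that put 7.94% and 10.3% of 28183 genes below 0.05.

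Raet1e, another NKG2D ligand, rose in both knockouts, at 0.86 ± 0.21 (SE, limma adjusted p = 0.0372) for Pkd1 and 0.84 ± 0.21 (adjusted p = 0.0288) for Pkd2. It went from 0.796 and 0.875 to 2.88 and 1.86, and from 0.182 and 0.397 to 1.01 and 1.64. Like Ulbp1, it entered the test only through its knockout libraries, all 4 controls being below 1. These calls held under 7 and 8 of 16 alternative settings. Raet1e is also the tested gene whose pattern over the 8 kidneys lay closest to that of Plk2 (Pearson r = 0.99 on log2(value + 1)). With Ulbp1 and Raet1e, 3 of the 13 genes of the NKG2D list were tested, and the remaining gene was called in neither model. For Pkd1 1 was higher and 2 were not called, beside 5.11% of all tested genes higher. For Pkd2 2 were higher and 1 was not called, beside 9.54%. T and natural killer cell markers summed to 0.175 to 0.397 in controls, 0.226 and 0.254 in Pkd1 knockouts and 1.37 and 1.23 in Pkd2 knockouts, with Ncr1 and Gzmb below 0.1 everywhere. Macrophage markers summed to 38.7 to 46.5 in controls and 125.7 to 238.2 in knockouts. Their part in the Ulbp1 difference was not tested.

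BC025446 was lower in knockouts of both models without passing the threshold. It was at 7.004 and 8.44 in Pkd1 controls against 2.34 and 3.66 in knockouts, and at 12.7 and 11.3 in Pkd2 controls against 8.63 and 3.49 in knockouts. The Pkd2 knockouts differ from each other more than the higher of them differs from its controls. The log2 changes were -1.14 ± 0.33 (SE, limma adjusted p = 0.0624) and -0.98 ± 0.33 (adjusted p = 0.0738). Without Pkd2 knockout replicate 1, the Pkd2 change was -1.53 (adjusted p = 0.00397), and without replicate 2 it was -0.43 (adjusted p = 0.367). The Pkd1 change was -0.90 without Pkd1 knockout replicate 1 (adjusted p = 0.262). Without either Pkd2 knockout library, the Pkd1 change had an adjusted p of 0.00871 or 0.00853, and with DESeq2 it was 0.00599. In the authors' deposited table its adjusted p was 0.00725 for Pkd1.

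BC025446 thus stood opposite to its level in the cells. Its pattern over the kidneys was most like those of Cmbl (r = 1.00) and Slc5a12 (r = 0.99), the latter a monocarboxylate transporter of the proximal tubule. Slc5a12 went from 177.4 and 207.6 to 57.8 and 91.3 in the Pkd1 model. The 7 proximal tubule markers summed to 1905 and 2020 in Pkd1 controls and 555.9 and 648.1 in knockouts, and to 2875 and 3799 against 1423 and 972.7 in the Pkd2 model. The part of this shift in the BC025446 values was not tested. Ly6 and uPAR family genes changed in no common direction. Of 17 tested, BC025446 included, 1 was lower for Pkd1, beside 5.48% of all tested genes. For Pkd2 2 were higher and 2 lower, beside 9.54% and 8.13%. Among these were Ly6e (1.29, limma adjusted p = 0.0141) and 9030619P08Rik, a neighbour of BC025446 in the cluster (-0.97, adjusted p = 0.00543).

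Ak1 fell in Pkd2 knockouts. It was at 17.6 and 16.3 in Pkd1 controls against 13.7 and 12.8 in knockouts, and at 32.1 and 28.8 in Pkd2 controls against 17.4 and 13.1 in knockouts. The Pkd2 knockouts lie at or below the level of the younger Pkd1 controls. The log2 change was -0.97 ± 0.18 (SE, limma adjusted p = 0.00871) for Pkd2 and -0.33 ± 0.18 (adjusted p = 0.268) for Pkd1. The difference of these effects was 0.63 ± 0.25 (adjusted p = 0.532) and did not pass, nor did that of any other member, in a contrast in which 0.00683% of genes, that is 1, did. The Pkd2 call was lost without either Pkd2 control (adjusted p = 0.0776 and 0.0565). Between control kidneys Ak1 rose from day 10 to day 20 by 0.81 ± 0.18 (adjusted p = 0.0207), a contrast in which 12.3% of genes were called (5.04% higher, 7.26% lower) and which shares its controls with the others. That call was lost without any one of the 4 control libraries (adjusted p = 0.0971 to 0.169). Age and model cannot be told apart here.

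Of 20 tested nucleotide and creatine kinases, 5 fell in Pkd2 knockouts, Ak1 among them, 1 rose and 14 were not called, beside 8.13% and 9.54% of all tested genes, with a median of -0.38. Ak4, a mitochondrial adenylate kinase, went from 253.2 and 323.5 to 76.5 and 59.7 (-2.07 ± 0.39 SE, limma adjusted p = 0.00889). Ckb, the brain-type creatine kinase, went from 34.0 and 36.5 to 13.6 and 10.9 (-1.46 ± 0.19 SE, adjusted p = 0.00238). In the Pkd1 model 1 of the 20 rose and 1 fell, beside 5.11% and 5.48% of all tested genes. In the older controls Ak4 and Ckb were higher than in the younger ones (2.55 and 1.72, adjusted p = 0.00490 and 0.00138).

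Ebf1 fell in knockouts of both models. It was at 25.7 and 26.5 in Pkd1 controls against 15.1 and 14.7 in knockouts, and at 19.4 and 20.4 in Pkd2 controls against 14.4 and 11.7 in knockouts. Replicates lay close together, and every knockout was below every control of either model. The log2 changes were -0.77 ± 0.16 (SE, limma adjusted p = 0.0206) and -0.58 ± 0.16 (adjusted p = 0.0390). The Pkd1 call was lost without any one of the 4 Pkd1 libraries (adjusted p = 0.0904 to 0.102), with changes of -0.75 to -0.79. The Pkd2 call was lost under 12 of 16 alternatives, among them the replicate block (adjusted p = 0.0670) and each left-out library except Pkd2 knockout replicate 1, with changes of -0.44 to -0.61. The authors' deposited table gave adjusted p of 0.199 and 0.377.

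Genes tied to Ebf1 by list or pattern varied. The B cell markers Cd79a, Ms4a1 and Pax5 stayed below 1 in all 8 kidneys, Cd79b reached 1.91, and the summed list of 7 B cell markers was 1.53 to 2.45 in controls and 3.26 to 5.33 in knockouts. Stromal and mural markers summed to 845.0 to 1785 in controls and 1705 to 3006 in knockouts. Of 12 such markers, 3 were called higher for Pkd1, beside 5.11% of all tested genes. For Pkd2 5 were higher and 1 lower, beside 9.54% and 8.13%. Single members differed: in the Pkd1 model Pdgfra was at 169.1 and 143.8 in controls and 98.3 and 123.4 in knockouts, and Col1a1 at 172.6 and 100.3 against 351.4 and 212.3. The part of B cells or stromal cells in the Ebf1 values was not tested. Over the 8 libraries the closest patterns were those of Mylk3 (r = 0.99) and Podxl (r = 0.98), the podocyte sialomucin podocalyxin. Podxl went from 81.9 and 89.7 to 34.6 and 40.8, and from 65.6 and 64.8 to 35.3 and 29.1. Zfp423, a zinc finger partner of Ebf1, fell in Pkd1 knockouts (-0.85 ± 0.20 SE, limma adjusted p = 0.0317, called under 9 of 16 alternatives), and Id1 fell in Pkd2 knockouts (-1.102 ± 0.257 SE, adjusted p = 0.0210). Of 10 tested genes of the EBF list, 0 rose and 2 fell in each model, Ebf1 included. Over all tested genes 5.11% rose and 5.48% fell for Pkd1, and 9.54% and 8.13% for Pkd2.

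Sulf2 was not called between knockouts and controls. It was at 33.5 and 22.9 in Pkd1 controls against 17.8 and 18.8 in knockouts, and at 11.3 and 15.9 in Pkd2 controls against 8.89 and 13.5 in knockouts. The Pkd1 controls differ widely from each other and the Pkd2 groups overlap. The log2 changes were -0.58 ± 0.26 (SE, limma adjusted p = 0.190) and -0.27 ± 0.26 (adjusted p = 0.513). Between controls Sulf2 fell from day 10 to day 20, by 1.00 on the log2 scale (SE 0.26, adjusted p = 0.0379). The age call was lost under 8 of 15 alternatives, among them each left-out library of the Pkd1 model and of the Pkd2 controls.

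Sulf1, the other heparan sulfate 6-O-endosulfatase, rose in both knockouts. It went from 9.91 and 7.17 to 78.5 and 66.0 for Pkd1 and from 8.71 and 7.17 to 30.1 and 60.3 for Pkd2. The log2 changes were 2.95 ± 0.30 (SE, limma adjusted p = 0.00159) and 2.29 ± 0.30 (adjusted p = 0.00248), called under each of 16 alternatives. Hs6st2, which adds the sulfate groups that both enzymes remove, rose as well (1.06 ± 0.21 and 1.95 ± 0.21 SE, adjusted p = 0.0163 and 0.00101). So did Sdc1, a syndecan (1.04 ± 0.20 and 1.49 ± 0.20 SE, adjusted p = 0.0155 and 0.00271). Their Pkd1 calls held under 11 of 16 alternatives for Hs6st2 and 13 of 16 for Sdc1, their Pkd2 calls under 16 of 16. Of 36 tested rows of the heparan sulfate list, 3 rose and 0 fell for Pkd1, beside 5.11% and 5.48% of all tested genes. The 3 that rose are Sulf1, Hs6st2 and Sdc1. For Pkd2 4 rose and 1 fell, beside 9.54% and 8.13%. The medians over the 36 were -0.04 and 0.15.

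Enc1, the neighbour of Lncenc1, was higher in the cells and in both knockouts. In the cells its log2 change was 0.62. In the kidneys it went from 4.55 and 4.48 to 12.3 and 10.1 (1.14 ± 0.21 SE, limma adjusted p = 0.0119) and from 2.08 and 2.23 to 5.52 and 8.37 (1.31 ± 0.21 SE, adjusted p = 0.00467). It was called under 12 of 16 alternatives for Pkd1 and 16 of 16 for Pkd2. Lncenc1 itself had at most 6 reads in any kidney.

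**Figure D5:**
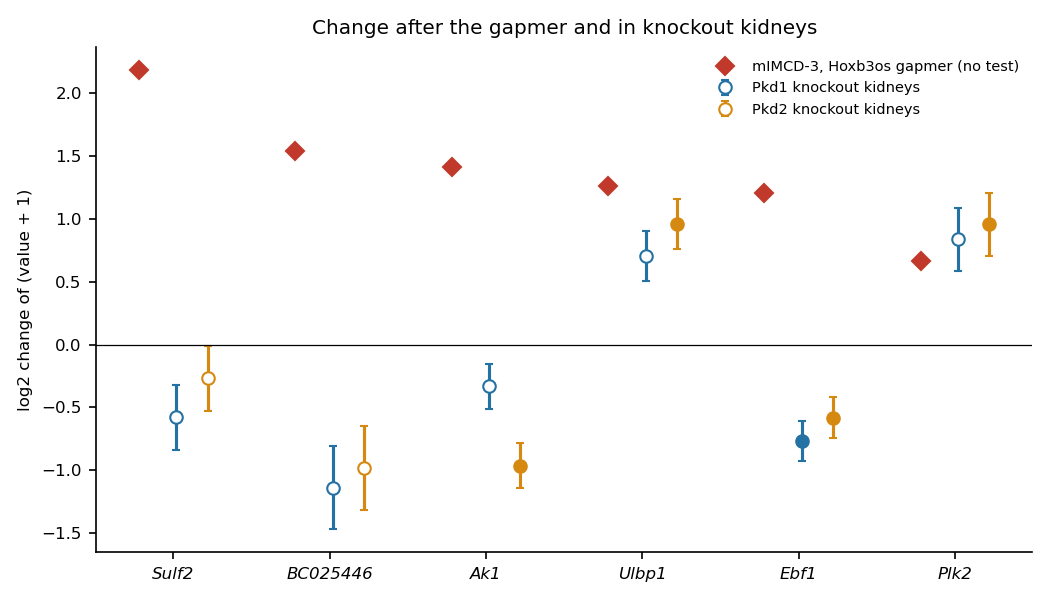
Log2 change of (value + 1) of the 6 members tested in the kidneys: in the cells (diamonds, a description without test), in Pkd1 knockouts (blue) and in Pkd2 knockouts (orange), with SE from limma; filled circles have an adjusted p below 0.05. All 6 diamonds lie above 0, while only Ulbp1 and Plk2 have kidney values above 0.

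Set side by side, Plk2 and Ulbp1 had positive changes in the cells and in both kidney models, at 0.66, 0.84 and 0.96 for Plk2 and 1.26, 0.71 and 0.96 for Ulbp1. BC025446, Ak1, Ebf1 and Sulf2 had positive changes in the cells and negative ones in both kidney models. Over the 8 kidney libraries Plk2 and Ulbp1 varied alike (Pearson r = 0.94 on log2(value + 1), across kidneys that share the 4 groups) and each ran opposite to BC025446 (r = -0.98 for Plk2 and -0.92 for Ulbp1) and Ak1 (r = -0.92 and -0.89). Sulf2 followed none of them closely, its highest r being 0.63 with Ebf1. Per kilobase of exon, mean kidney levels ran from 7.31 for Ak1, 4.53 for BC025446, 3.49 for Plk2, 3.04 for Sulf2 and 1.90 for Ebf1 to 0.135 for Ulbp1, 0.0107 for Lncenc1 and 0.00800 for Ly6g. Neighbours in this order overlapped over the 8 libraries, except that Ebf1 lay above Ulbp1 throughout.

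The other patterns closest to members over the kidneys were Puf60 and Hdgfrp2 for Sulf2 (r = 0.99 each), Rgcc and Tmem86b for Ak1 (0.99 each), Hebp2 and Fam198b for Ulbp1 (0.99 each) and Rab23 for Plk2 (0.99). Each was picked as closest among all tested genes over 8 libraries of 4 groups, and a high value follows from that choice.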

How the data were processed

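RNA was extracted with Trizol and made into TruSeq libraries, per the labels' protocols. The submitters' processing notes name STAR 2.4.2a, RSEM 1.2.22 and edgeR (mm10) for kidneys and Trimmomatic 0.32, STAR 2.4.2a and DESeq2 1.12.3 (GRCm38) for cells. What the authors deposited per kidney library is a signal, CPM divided by a scaling factor, and per cell library a signal too, counts divided by a size factor. Low values are whole multiples of 1 read, so reads could be recovered (92.2% to 95.0% of kidney values and 100.0% of cell values within 0.02 of a whole read; Pkd1 control replicate 1 is the least regular). Both deposited tables also hold the authors' log2 changes, signed as control minus knockout in kidneys and gapmer minus control in cells, and the authors' p-values or FDR. The likelihood ratio score deposited by the authors was not used.

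Members were matched by symbol in the cell table and by Ensembl identifier in the kidney table. Kidneys were tested with limma 3.58.1 (trend, R 4.3.3) on log2(value + 1), in 1 fit of 4 groups with 4 residual degrees of freedom, Benjamini-Hochberg adjusted over 14637 genes. On simulated data for the Pkd1 contrast (14438 genes), it called 34% of genes changed 2-fold, 100% of those changed 4-fold and 0.0351% of unchanged ones. Only 100 genes were changed at each fold and all genes shared 1 setting of spread, so these rates need not hold in the kidneys. Cell values of the members were not tested. Alternatives were other scalings, filters, pseudocounts and fits, edgeR 4.0.16 and DESeq2 1.42.0 on the recovered reads, and leaving out each library. The members and gene lists were chosen with earlier results of these data known. Named genes are the members, those just outside, their 2 closest patterns, neighbours, and of each list the 6 largest changes in the cells and the 4 smallest adjusted p per kidney contrast. Some genes of these lists are not reported here. Annotation is GENCODE M21, and promoters are RefSeq's on GRCm38.p6.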

Additional observations from a re-analysis of the deposited data

How the results depend on the processing

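All 8 members had each gapmer library above each control under the 8 alternatives, but the choice of members and the kind of alternative fix most of these outcomes. The replicate block, differences within replicate numbers, was positive in 8 of 8. Their log2 changes moved by more than the replicate SD in 10 of 64 cases, all from leaving out a control library. Of 372 alternative kidney values of members, 313 kept their direction and side of the threshold, 39 lost a call, 15 gained one and 5 changed sign. The sign changes came from leaving out a library: Sulf2 in Pkd2 knockouts (-0.54 to 0.0105), and the difference between models for Plk2 (-0.46 to 0.23, among them 0.12) and BC025446 (-0.71 to 0.39, among them 0.08), none of them called.

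Genes called for Pkd1 numbered 1550, 790 without a filter and 325 to 2474 with 1 library left out; for Pkd2 2587, 1379 in a fit of that model alone and 621 to 4253 with 1 library left out; for age 1801 and 403 to 2553. The difference between models gave 1 gene, 8 with quantile scaling, 0 without a filter, 5 with a pseudocount of 0.1, 5 with edgeR, 179 with DESeq2, 18 without mitochondrial and small RNAs, 0 with the replicate block and 0 to 26 with 1 library left out. More genes tested without a filter, and fewer libraries, are part of these settings; the other causes were not tested. The replicate block gave 1231 genes for Pkd1, 2200 for Pkd2 and 1511 for age. Same-numbered samples share only a number, and their deviations correlated at -0.38 (Pkd1), -0.05 (Pkd2) and -0.21 (controls). In the simulated data, with 2 kidneys a group, changes of 2-fold were often missed. At 0 to 6 reads per kidney, as for Ly6g and Lncenc1, no difference was detectable.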
